A study of Mus musculus with 10 samples.

Results

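The genes described here are the 3 PGC-1 coactivators (Ppargc1a, Ppargc1b and Pprc1), the transcription factors they are known to work with (Nrf1, Gabpa and Esrra), and 4 genes that copy or transcribe mitochondrial DNA (Tfam, Tfb2m, Polg and Polrmt). They were chosen by name, and all 10 were found among the 34162 gene names of the deposited transcript table and passed the filter on low counts. RNA was sequenced from mouse melanoma cells of strain C57BL/6:SV129 that had been sorted by FACS from fresh tumours. Primary cells came from skin and metastatic cells from lymph node, and each were divided into c-Myc-high (GFP+) and c-Myc-low (GFP-) cells. Both primary groups had 2 libraries and both metastatic groups had 3, which made 4 groups and 10 libraries. All groups share the strain, the sort and an RNA amplification step before library preparation. What drives the tumours, the reporter behind GFP and the animals' age: none is given in the sources used here. Nothing in the labels ties the replicates to separate mice. Each p-value therefore reflects the spread among these libraries, which may be technical.

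PGC-1 coactivators bind transcription factors and raise transcription of nuclear genes for mitochondrial respiration. Among their partners are NRF-1 (Nrf1), the ETS factor GABP (Gabpa) and the estrogen-related receptor alpha (Esrra), which act on promoters of respiratory genes and of the mitochondrial transcription machinery. Tfam and Tfb2m start transcription on mitochondrial DNA together with the RNA polymerase Polrmt, and Polg is the catalytic subunit of the mitochondrial DNA polymerase. In pigment cells, the transcription factor MITF is known to activate Ppargc1a.

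Total estimated counts ranged from 1603012 to 6844328 per library, and a count of 3 stood for 0.362 to 2.80 CPM (counts scaled to library size). The cells' make-up differed between sites and between libraries. The pigment cell markers Mitf and Tyr were detected in all 10 libraries. A list of 15 pigment cell markers summed to 639 to 2929 CPM in primary and 2960 to 21070 CPM in metastatic libraries. A list of 16 keratinocyte markers summed to 24450 to 91300 CPM in primary and 37.5 to 957 CPM in metastatic libraries. A list of 10 pan-leukocyte markers summed to 44.1 to 226 CPM in primary and 393 to 5066 CPM in metastatic libraries. Salivary gland markers, 11 in the list, reached 205500 CPM in metastatic c-Myc-high replicate 1 and 61630 CPM in replicate 3, against 9.10 to 765 CPM in the other 8 libraries. The part of these differences in the results below was not tested except where values without those 2 libraries are given. In sorted bulk samples, fewer cells of a type and less RNA per cell cannot be told apart.

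Promoter sequences are shown for Ppargc1a, which had the highest log2 fold change between sites of the 10 genes, and for Polrmt, the only member whose window held the NRF-1 motif. RefSeq promoter windows of 300 bases on GRCm38.p6 were found for 9 of the 10 genes, with 2 windows for Nrf1. The lines give 250 bases before and 10 after the RefSeq start, 5′ to 3′ on the gene's strand, and capitals mark motif matches.
Ppargc1a, chr5:51567716-51567975, minus strand: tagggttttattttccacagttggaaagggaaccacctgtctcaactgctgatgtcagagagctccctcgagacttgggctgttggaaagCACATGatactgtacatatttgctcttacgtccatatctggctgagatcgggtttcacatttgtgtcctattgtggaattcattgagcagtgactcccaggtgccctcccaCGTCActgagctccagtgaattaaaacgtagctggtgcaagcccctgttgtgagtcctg
Polrmt, chr10:79746572-79746831, minus strand: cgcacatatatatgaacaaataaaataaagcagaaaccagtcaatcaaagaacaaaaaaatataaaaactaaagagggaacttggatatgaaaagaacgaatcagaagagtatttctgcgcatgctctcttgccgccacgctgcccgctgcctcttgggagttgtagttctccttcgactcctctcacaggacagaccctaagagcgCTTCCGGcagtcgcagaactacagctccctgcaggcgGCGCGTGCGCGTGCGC

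A set of 6 motifs was searched on both strands, and a match describes letters only. The Ppargc1a window held the M-box core bound by MITF, CATGTG, 160 bases before the start, and the core of the CRE site bound by CREB, TGACG, 49 bases before it. The M-box core was in 14.2% and the CRE core in 20.8% of all 32851 promoter windows. In the Polrmt window, the ETS motif CCGGAAG began 43 bases before the start, and 2 overlapping matches of the NRF-1 motif GCGCNTGCGC began 6 bases before it and at it. The ETS motif was in 8.86% of all windows and in those of Polg, Tfam, Polrmt and Gabpa, and the NRF-1 motif in 4.60%. Tfam also held the M-box core and Polg the CRE core. The ERR motif AAGGTCA (4.72% of all windows) and the E-box bound by MYC and MITF, CACGTG (7.15%), were found in none of the members' windows.

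The Ppargc1a window stands before the start of its deposited transcripts Ppargc1a-202 and Ppargc1a-204, which took 3.93% and 15.2% of the gene's counts. The leading transcript, the protein-coding Ppargc1a-203 with 67.9%, starts at position 51553922 of chromosome 5, further downstream, and its promoter is not shown. The gene as annotated in GENCODE (GRCm38) spans chr5:51454250-51567726 on the minus strand. Ppargc1a-203 held 0 counts in primary c-Myc-high replicate 1, 6.80 in replicate 2, and 0.20 and 14.9 in the primary c-Myc-low replicates. It held 411, 79.5 and 995 counts in the metastatic c-Myc-high and 1028, 596 and 217 in the metastatic c-Myc-low libraries. In primary c-Myc-high replicate 1, 84.3% of the gene's counts went to Ppargc1a-204, which is annotated as a target of nonsense-mediated decay.

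Levels of different genes were compared by rank within each library, as RPKM summed over a gene's transcript rows. Each row is scaled by its own length, so short rows weigh more in the sum. By the leading transcript alone, the mean RPKM was 2.02 instead of 8.28 for Ppargc1a and 0.628 instead of 4.79 for Polg. On that measure 2 of the 10 genes kept their rank by mean RPKM. Pprc1 ranked highest, with a median rank of 2 of the 10 genes, followed by Gabpa and Polg (3), Ppargc1a and Polrmt (4), Nrf1 (5), Tfam (7), Esrra and Tfb2m (8) and Ppargc1b (10). Neighbours in this order overlapped in their ranks over the libraries. Ppargc1a had no fixed place, being first in 4 libraries and last in 2. Its RPKM lay between the 15.8 and 97.9 percentiles of all tested genes. Ppargc1b was last in 6 libraries and under 1 RPKM in 9. Between libraries, RPKM was not scaled to the counted totals. Primary c-Myc-high replicates 1 and 2, with total counts of 5075407 and 1603012, held 3.40 and 10.3 counts of Esrra. These were 0.0810 and 0.235 RPKM, against 0.820 and 9.60 CPM. Where groups are said below to overlap in RPKM, the overlap is therefore a description and no check of the CPM values.

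**Figure D1:**
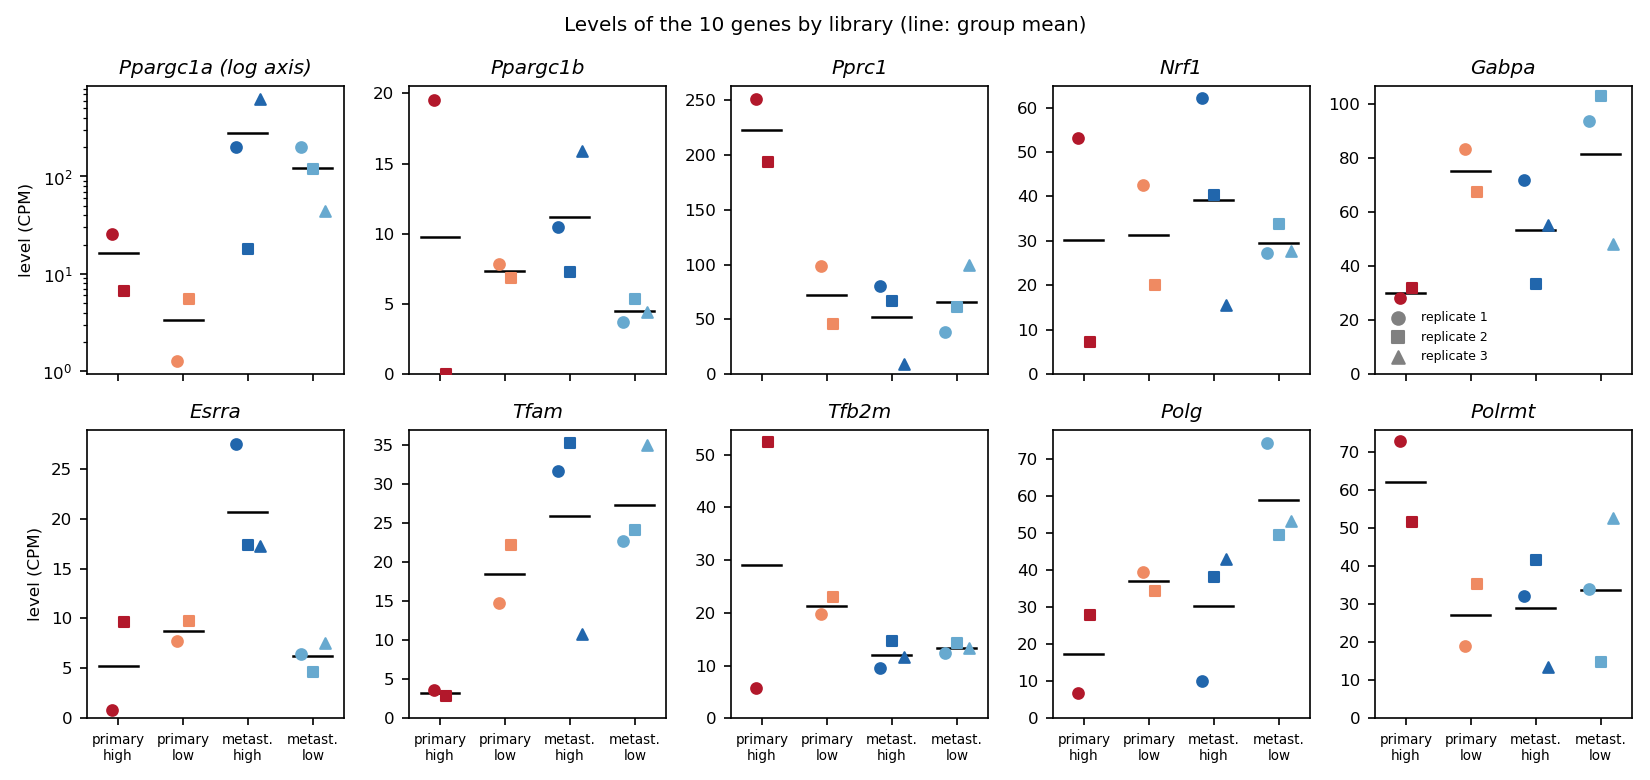
Level of each gene in every library, in CPM with TMM scaling, by group. Points are libraries with the replicate given by the symbol, lines are group means, and the axis for Ppargc1a is logarithmic. Ppargc1a lay at 1.27 to 25.8 CPM in primary and 18.1 to 624 CPM in metastatic libraries.

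Ppargc1a, the coactivator PGC-1alpha, was at 25.8 and 6.64 CPM in primary c-Myc-high and 1.27 and 5.46 CPM in primary c-Myc-low libraries. In metastatic c-Myc-high replicates 1, 2 and 3 it was at 201, 18.1 and 624 CPM, and in metastatic c-Myc-low at 199, 119 and 43.8 CPM. All metastatic c-Myc-low libraries lay above all primary c-Myc-low ones, while the c-Myc-high groups overlapped through metastatic replicate 2. In c-Myc-low cells the mean was 3.37 ± 2.97 CPM (SD, n = 2) at the primary and 121 ± 77.7 CPM (SD, n = 3) at the metastatic site. For c-Myc-high cells the means were 16.2 ± 13.6 CPM (SD, n = 2) and 281 ± 311 CPM (SD, n = 3). The metastatic-to-primary log2 fold change was 5.18 (SE 1.52) in c-Myc-low cells, with an unadjusted p = 0.00516 and an adjusted p = 0.108 by edgeR's quasi-likelihood test. It passed when metastatic c-Myc-high replicate 2 was left out of the shared fit (5.07, edgeR adjusted p = 0.0472). Leaving out primary c-Myc-low replicate 1 or 2, which leaves 1 library in that group, gave 4.46 (edgeR adjusted p = 0.733) and 6.5 (edgeR adjusted p = 0.321). In c-Myc-high cells it was 4.08 (SE 1.42), with an unadjusted p = 0.0140 and an adjusted p = 0.110 by the same test. Neither passed the threshold of an adjusted p under 0.05, whereas DESeq2 gave adjusted p-values of 0.000982 and 0.00752.

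Leaving out both libraries rich in salivary gland transcripts left 1 metastatic c-Myc-high library, replicate 2, the one with the lowest Ppargc1a of the 3, and gave a log2 fold change of 0.08 for c-Myc-high cells (edgeR adjusted p = 1). Leaving out replicate 2 and keeping the other 2 gave 4.60 (edgeR adjusted p = 0.0653). Without these 2 libraries the c-Myc-low value was 5.09 (edgeR adjusted p = 0.0540). Between c-Myc classes, primary cells gave a high-to-low log2 fold change of 2.31 for Ppargc1a (SE 1.39, edgeR adjusted p = 0.503) and metastatic cells one of 1.22 (SE 1.06, edgeR adjusted p = 1). The latter was -2.78 without the 2 salivary-rich libraries, again with 1 metastatic c-Myc-high library, and -0.14 without replicate 3 alone. The difference of the class effect between sites was -1.10 (SE 1.69), with an edgeR adjusted p = 0.933.

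Ppargc1b, the closest relative of Ppargc1a, was at 19.6 and 0.0369 CPM in primary c-Myc-high libraries, the latter under the level of 3 counts. It was at 7.81 and 6.81 CPM in primary c-Myc-low, 10.5, 7.28 and 15.9 CPM in metastatic c-Myc-high, and 3.69, 5.36 and 4.46 CPM in metastatic c-Myc-low libraries. The metastatic groups did not overlap in CPM but did in RPKM, with a high-to-low log2 fold change of 1.31 (SE 1.2, edgeR adjusted p = 1). The site comparison gave 0.16 (SE 1.33) in c-Myc-high and -0.71 (SE 1.30) in c-Myc-low cells, and neither passed the test. The c-Myc-high value was 8.82 without primary c-Myc-high replicate 1 and -0.72 without replicate 2 of that group.

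Pprc1, the PGC-1-related coactivator that is known to respond to growth signals, had its highest levels in primary c-Myc-high cells, at 251 and 194 CPM. The other libraries lay at 98.4 and 46.0 CPM (primary c-Myc-low), 80.8, 66.7 and 8.90 CPM (metastatic c-Myc-high) and 38.3, 60.9 and 99.7 CPM (metastatic c-Myc-low). Both primary c-Myc-high libraries were thus above all 8 others. The metastatic-to-primary log2 fold change in c-Myc-high cells was -2.09 (SE 0.86), with an unadjusted p = 0.0324 and an adjusted p = 0.160 by edgeR. DESeq2 gave an adjusted p = 0.0585. In RPKM these groups overlapped. The high-to-low value in primary cells was 1.62 (SE 0.98), with an edgeR adjusted p = 0.504. Pprc1 as annotated overlaps Ldb1 on the other strand. Its span begins at 46044886 with Pprc1-207, a row at 0 counts, and its annotated rows with counts begin at 46056539 or later. A further row with 28.7% of the gene's counts is not in the GENCODE release, so its position is not given. Whether the counted rows overlap Ldb1 was not examined. Since the strandedness of counting is not given, reads of overlapping genes may not be told apart.

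The make-up of the coactivator family differed between libraries. Of the summed RPKM of the 3 genes, Pprc1 held 72.1% and 97.4% in primary c-Myc-high and 90.6% and 84.0% in primary c-Myc-low libraries. Ppargc1a held 70.7%, 12.1% and 96.7% in metastatic c-Myc-high and 88.3%, 70.2% and 24.1% in metastatic c-Myc-low libraries. Pprc1 was therefore the leading family member in all 4 primary libraries and in 2 of the 6 metastatic ones, and Ppargc1a in the remaining 4. These shares are a description and were not tested. They also depend on summing RPKM over transcript rows. Over all libraries, the mean RPKM summed this way was 8.28 for Ppargc1a and 6.04 for Pprc1. By the leading transcript alone it was 2.02 and 2.32.

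**Figure D2:**
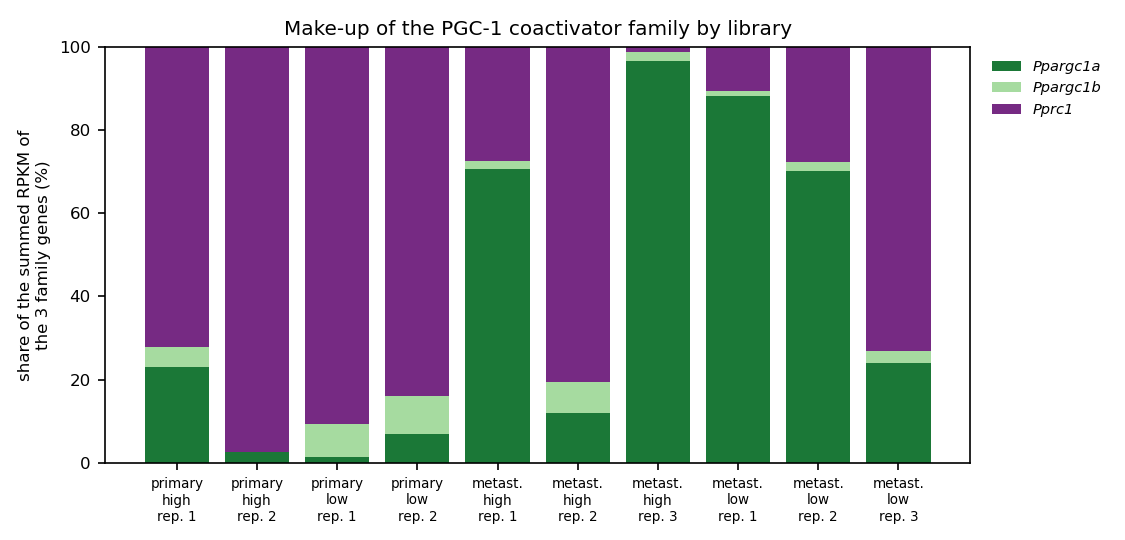
Share of each PGC-1 coactivator in the summed RPKM of the 3 genes, by library, in percent. Pprc1 took over 72% in each primary library, and Ppargc1a took 70.2% to 96.7% in 4 of the 6 metastatic ones.

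Among the partner transcription factors, Esrra, an orphan nuclear receptor, was at 0.820 and 9.60 CPM in primary c-Myc-high libraries, or 3.40 and 10.3 estimated counts. It was at 27.5, 17.3 and 17.3 CPM in metastatic c-Myc-high libraries, at 7.70 and 9.76 CPM in primary c-Myc-low and at 6.45, 4.64 and 7.5 CPM in metastatic c-Myc-low ones. The metastatic c-Myc-high libraries were the 3 highest of all 10 in CPM. In RPKM they overlapped the metastatic c-Myc-low ones, and the 2 c-Myc-low groups overlapped each other. In metastatic c-Myc-high replicate 1 the transcript row Esrra-205 held 66.3 estimated counts, against 12.6 on Esrra-201, and it was at 0 in all other libraries. Between sites, c-Myc-high cells gave a log2 fold change of 2.13 (SE 1.21, edgeR adjusted p = 0.271) and c-Myc-low cells one of -0.49 (SE 1.07, edgeR adjusted p = 1). Leaving out both libraries of the lowest total count, primary c-Myc-high replicate 2 and metastatic c-Myc-high replicate 3, gave 4.97 in c-Myc-high cells (edgeR adjusted p = 0.0269), with 1 primary c-Myc-high library left. Without primary c-Myc-high replicate 1 that value was 0.95 (edgeR adjusted p = 0.576). The high-to-low value in metastatic cells was 1.73 (SE 0.99, edgeR adjusted p = 1). Esrra overlaps Trmt112 on the other strand, with the same limit on its reads.

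Nrf1 was at 53.1 and 7.15 CPM in primary c-Myc-high and 42.6 and 20.0 CPM in primary c-Myc-low libraries. It was at 62.1, 40.2 and 15.6 CPM in metastatic c-Myc-high and 27.3, 33.7 and 27.8 CPM in metastatic c-Myc-low libraries. The groups overlapped in every comparison, and the log2 fold changes lay between -0.08 and 0.41. Nrf1-217, a row annotated as a retained intron, held 171 of the gene's 221 estimated counts in primary c-Myc-high replicate 1.

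Gabpa, the DNA-binding subunit of GABP, had the narrowest range of the 10 genes, 3.65-fold from the lowest to the highest library. It was at 28.2 and 31.8 CPM in primary c-Myc-high libraries, below the 83.6 and 67.4 CPM of primary c-Myc-low ones, with a log2 fold change of -1.33 (SE 0.76, edgeR adjusted p = 0.485). Metastatic c-Myc-high libraries were at 72.2, 33.3 and 55.3 CPM and c-Myc-low ones at 93.7, 103 and 48.3 CPM, with overlap. Gabpa overlaps Atp5j on the other strand.

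Of the genes acting on mitochondrial DNA, Tfam, which packages that DNA and starts its transcription, was lowest in primary c-Myc-high cells. It was at 3.59 and 2.80 CPM there, which are 14.9 and 3 estimated counts. The other libraries were at 14.8 and 22.2 CPM (primary c-Myc-low), 31.7, 35.3 and 10.8 CPM (metastatic c-Myc-high) and 22.7, 24.1 and 35.0 CPM (metastatic c-Myc-low), all above both primary c-Myc-high libraries. The metastatic-to-primary log2 fold change in c-Myc-high cells was 2.99 (SE 0.98), with an unadjusted p = 0.0100 and an adjusted p = 0.0963 by edgeR. DESeq2 gave 2.90 with an adjusted p = 0.00537. Without the 2 libraries of the lowest total count the value was 3.25 and passed the edgeR test (adjusted p = 0.0331), and it also passed without metastatic c-Myc-high replicate 3 alone (3.35, adjusted p = 0.0456). In primary cells the high-to-low value was -2.50 (SE 1), with an unadjusted p = 0.0281 and an adjusted p = 0.419 by edgeR. In c-Myc-low cells the site comparison gave 0.56 (SE 0.85, edgeR adjusted p = 1). The difference of the class effect between sites was 2.44 (SE 1.24), with an unadjusted p = 0.0719 and an adjusted p = 0.744 by edgeR.

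Tfb2m, the other initiation factor, was at 5.66 and 52.3 CPM in the 2 primary c-Myc-high libraries, the lowest and the highest of all 10. It was at 19.8 and 23.0 CPM in primary c-Myc-low, 9.60, 14.7 and 11.7 CPM in metastatic c-Myc-high and 12.3, 14.3 and 13.3 CPM in metastatic c-Myc-low libraries. The site comparison gave log2 fold changes of -1.25 (SE 0.96) in c-Myc-high and -0.68 (SE 0.95) in c-Myc-low cells, and neither passed the test. Without the 2 libraries of the lowest total count, the c-Myc-high value was 1.10.

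Polg was at 6.97 and 28.0 CPM in primary c-Myc-high, 39.6 and 34.5 CPM in primary c-Myc-low, 9.96, 38.2 and 43.1 CPM in metastatic c-Myc-high and 74.4, 49.5 and 53.2 CPM in metastatic c-Myc-low libraries. The c-Myc-high libraries lay below the c-Myc-low ones at both sites, with log2 fold changes of -1.11 in skin tumours (SE 0.95, edgeR adjusted p = 0.643) and -0.96 in lymph nodes (SE 0.77, edgeR adjusted p = 1). In RPKM the groups overlapped at both sites. The retained-intron row Polg-214 held 39.8% of the gene's counts, and Polg overlaps Fanci on the other strand.

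Polrmt was at 72.9 and 51.6 CPM in primary c-Myc-high and 19.1 and 35.3 CPM in primary c-Myc-low libraries. Metastatic libraries were at 32.2, 41.7 and 13.4 CPM (c-Myc-high) and 34.1, 14.9 and 52.7 CPM (c-Myc-low). In CPM the primary c-Myc-high libraries lay above the primary c-Myc-low and the metastatic c-Myc-high ones. In RPKM these groups overlapped and the order of the means was the other way, with 3.05 ± 3.02 (SD, n = 2) against 4.28 ± 0.112 (SD, n = 2) and 4.31 ± 4.72 RPKM (SD, n = 3). RPKM was not scaled to the counted totals, so this order is no check of the one in CPM. The log2 fold change for c-Myc class in primary cells was 1.19 (SE 0.91, edgeR adjusted p = 0.594), and that for site in c-Myc-high cells was -1.09 (SE 0.81, edgeR adjusted p = 0.397). Over the alternative settings these reached -0.75 and 0.27, the other sign in each case. Only 42.8% of the counts of Polrmt fell on protein-coding rows. Some of its rows held the same counts in every library, among them Polrmt-204, Polrmt-205, Polrmt-206 and Polrmt-207, each with 10.45% of the gene's counts. The share may therefore depend on how reads were divided among such rows, which is not given.

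**Figure D3:**
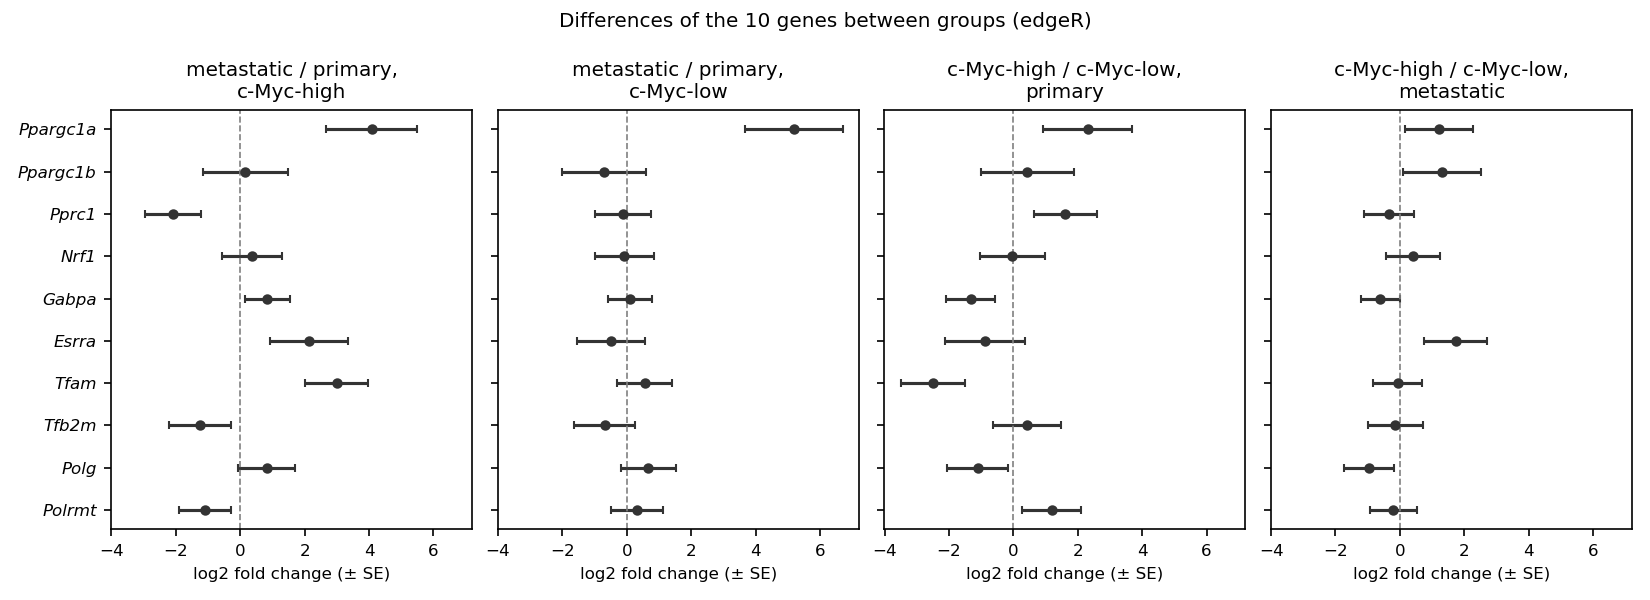
Log2 fold change of each gene in the 4 comparisons, with its standard error from edgeR. No value passed an adjusted p under 0.05, and Ppargc1a had the highest value in each site comparison, 4.08 and 5.18.

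Set beside all 16805 genes tested, the 10 genes had no call by edgeR in any comparison. In c-Myc-high cells, 0 of 10 were called between sites (all genes 3.97%), 3 had an unadjusted p under 0.05 (all genes 26.3%), and DESeq2 called 2 (all genes 21.0%). The groups did not overlap in CPM for 5 members (all genes 27.9%). In c-Myc-low cells, 0 were called (all genes 2.11%), 1 had an unadjusted p under 0.05 (15.1%), DESeq2 called 1 (10.3%) and 6 did not overlap (45.3%). The counts by the tests are near the shares of all genes and are not a result about the members. The median log2 fold change of the members was 0.59 in c-Myc-high and 0.02 in c-Myc-low cells, against 0.38 and 0.10 over all genes.

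Between c-Myc classes, edgeR called 0 members and 0% of all genes at either site and in the mean over both sites. In primary cells, 1 member had an unadjusted p under 0.05 (all genes 11.6%), DESeq2 called 0 (2.81%), and 6 did not overlap (41.5%). In metastatic cells the counts were 0 (4.80%), 0 (0.593%) and 3 (11.1%). In the mean over both sites, 0 members had an unadjusted p under 0.05 (12.9%) and DESeq2 called 0 (3.30%). The mean class effect ranged from 1.76 (SE 0.87, edgeR adjusted p = 0.417) for Ppargc1a, which was -0.27 without the 2 salivary-rich libraries (edgeR adjusted p = 0.938), to -1.28 (SE 0.62, edgeR adjusted p = 0.408) for Tfam. DESeq2 moved the median of all genes by 0.19 (log2) in this comparison, by 0.13 in that of primary cells and by -0.11 between sites in c-Myc-high cells, so values near 0 depend on the scaling.

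The level of Ppargc1a was also set beside the marker sums. Per 1000 CPM of pigment cell markers, it was 8.82 and 10.4 CPM in primary c-Myc-high, 1.60 and 3.99 in primary c-Myc-low, 43.8, 6.11 and 38.9 in metastatic c-Myc-high and 9.46, 13.1 and 6.28 in metastatic c-Myc-low libraries. The metastatic c-Myc-low libraries lay above the primary c-Myc-low ones, and their means differed 3.43-fold on this scale against 35.9-fold in CPM. For c-Myc-high cells the ratio of the means was 3.08 against 17.3 in CPM. The primary c-Myc-high values lay within the range of the metastatic c-Myc-low ones. Metastatic c-Myc-high replicates 1 and 3, those rich in salivary gland transcripts, lay above all others. On this scale the c-Myc-high groups of Tfam overlapped, with 1.22 and 4.38 in primary and 6.90, 11.9 and 0.674 in metastatic libraries. Those of Esrra overlapped too, with 0.280 and 15.0 in primary and 6.00, 5.85 and 1.08 in metastatic libraries. The remaining members are not given on this scale. Over the 6 metastatic libraries, 5 relations of Ppargc1a on log2(CPM + 1) were computed. They took the total count and the pan-leukocyte, B cell, pigment cell and salivary gland sums, and p-values were adjusted over these 5. Sums of the other marker lists were not related to it. Keratinocyte sums, for example, were 290, 37.5 and 957 CPM in metastatic c-Myc-high and 294, 150 and 48.4 CPM in metastatic c-Myc-low libraries. They were highest and lowest in the same libraries as Ppargc1a, and this was not tested. Ppargc1a ran against the pan-leukocyte sum, with Pearson's r = -0.941 (exact permutation p = 0.00833, adjusted p = 0.0208) and Spearman's rho = -0.943 (exact permutation p = 0.0167, adjusted p = 0.0417). Without the 2 libraries farthest from the median of the sum, r was -0.847. The B cell sum gave r = -0.939 and rho = -0.943, with adjusted exact permutation p-values of 0.0208 and 0.0417, and r was -0.866 without its 2 farthest libraries. With the pigment cell sum, r was 0.726 (exact permutation p = 0.1, adjusted p = 0.167) and rho 0.543, with r = 0.554 without the 2 farthest. With the salivary gland sum r was 0.677 (adjusted exact permutation p = 0.186) and with the total count -0.392 (adjusted exact permutation p = 0.457). Without the 2 farthest libraries these became 0.232 and 0.374, the latter a change of sign. These 6 libraries are too few for values within each c-Myc class. The adipocyte genes Adipoq and Plin1 were at 0 to 3.73 CPM in all libraries. The sum of the 10 adipocyte markers was 1.77 and 38.9 CPM in primary c-Myc-high, 11.4 and 15.5 in primary c-Myc-low, 33.4 to 99.6 in metastatic c-Myc-high and 11.9 to 38.8 in metastatic c-Myc-low libraries. The libraries with the highest sums were again those rich in salivary gland transcripts, and the part of these markers in the level of Ppargc1a was not tested.

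**Figure D4:**
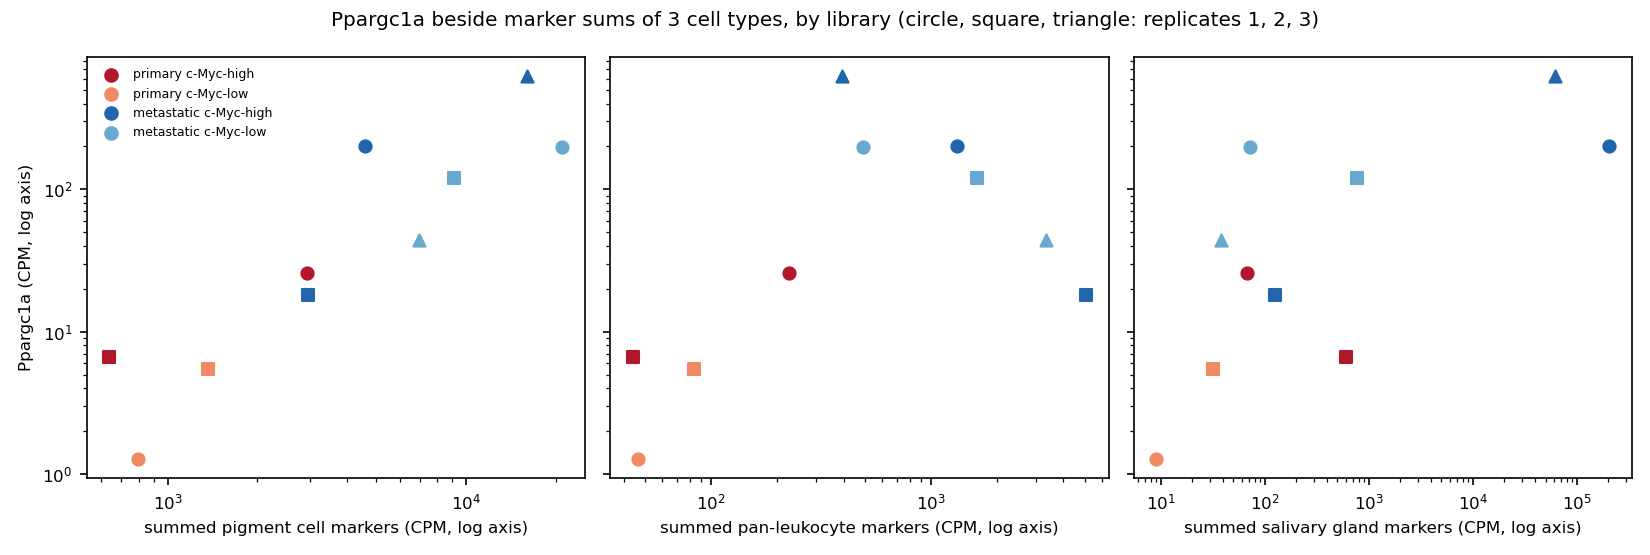
Ppargc1a level against the summed level of pigment cell, pan-leukocyte and salivary gland markers, in CPM on log axes. Points are libraries, coloured by group. Among the 6 metastatic libraries Ppargc1a was lower where the leukocyte sum was higher (r = -0.941), and the 2 libraries far to the right in the salivary panel are metastatic c-Myc-high replicates 1 and 3.

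A set of 6 lists of genes around the coactivators was followed in the same fit. Of 38 tested PGC-1 partners and upstream regulators, 1 was called higher and 1 lower in metastatic than in primary c-Myc-high cells, and 1 higher in c-Myc-low cells. Of all genes, 3.97% and 2.11% were called in these comparisons. Mef2c, a MADS-box factor known to bind the Ppargc1a promoter and also active in B cells, was higher in metastatic cells of both classes. Its log2 fold change was 6.15 for c-Myc-high (SE 1.11, edgeR adjusted p = 0.0133) and 6.03 for c-Myc-low cells (SE 1.09, edgeR adjusted p = 0.0135), and it passed in 15 and 17 of 20 alternative settings. Its means were 2.17 ± 1.33 (SD, n = 2) and 160 ± 129 CPM (SD, n = 3) in the c-Myc-high groups, and 3.65 ± 0.132 (SD, n = 2) and 238 ± 66.6 CPM (SD, n = 3) in the c-Myc-low groups. The pan-leukocyte sum differs between the same sites, and its part in this result was not tested. Rxra, a nuclear receptor partner, was lower in metastatic c-Myc-high cells, with 31.9 ± 8.32 CPM (SD, n = 3) against 273 ± 120 CPM (SD, n = 2) and a log2 fold change of -3.10 (SE 0.67, edgeR adjusted p = 0.0292). It passed in 9 of 20 alternative settings. In c-Myc-low cells Rxra was also lower at the metastatic site, with 42.2 ± 13.3 CPM (SD, n = 3) against 219 ± 91.8 CPM (SD, n = 2). It was not called there. In the mean class comparison, the CREB coactivators Crtc1 and Crtc3 had values of -2.46 (SE 0.90, edgeR adjusted p = 0.314) and 1.24 (SE 0.50, edgeR adjusted p = 0.343).

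Of 39 tested nuclear targets of NRF-1, GABP and ERR for respiration, 0 were called between c-Myc classes at either site by edgeR. In metastatic cells 35 of the 39 had a positive value with a median of 0.65, against 0.00 over all genes, and in primary cells 23 of 39 did, with a median of 0.62 against -0.12. The lowest p-values in the mean over both sites were those of Mdh2, the citric acid cycle malate dehydrogenase, at 2.16 (SE 0.62), and Sdhb, a subunit of respiratory complex II, at 1.78 (SE 0.53), each with an edgeR adjusted p = 0.305.

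Of 26 import and chaperone genes, 0 were called in any comparison by edgeR. In the mean over both sites 5 had an unadjusted p under 0.05, all in the positive direction, and DESeq2 called 3, against 12.9% and 3.30% of all genes in either direction. Timm13 and Timm50, parts of the import machinery of the inner membrane, had log2 fold changes of 2.47 (SE 0.59) and 2.67 (SE 0.72), each with an edgeR adjusted p = 0.305. The list's median for c-Myc class was 0.91 in primary and 0.69 in metastatic cells.

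The remaining 3 lists also had 0 calls by edgeR in every comparison. Of 21 genes for mitochondrial DNA replication and maintenance, 17 had a positive value between sites in c-Myc-high cells, with a median of 1.34 against 0.38 over all genes, 2 with an unadjusted p under 0.05 and 2 called by DESeq2, against 26.3% and 21.0% of all genes. Their lowest p-values in the mean class comparison were those of the topoisomerase gene Top3a, at -2.56 (SE 1.16, edgeR adjusted p = 0.381), and of Endog, a mitochondrial nuclease that was at 0 counts in both primary c-Myc-high libraries. Top3a had a mean of 0.280 CPM (n = 2) in that group, under the level of 3 counts. Of 25 genes for mitochondrial transcription and RNA processing, 13 had a positive value between sites in c-Myc-high cells, with a median of 0.08. Of these, Lrpprc, which stabilises mitochondrial mRNAs, had the lowest p in the mean class comparison, at 3.75 (SE 1.16, edgeR adjusted p = 0.305), with a range of -0.09 to 4.37 over the alternative settings. The next was Mterfd3, of the family of mitochondrial termination factors, at -3.63 (SE 1.17, edgeR adjusted p = 0.305), with a range of -3.72 to -0.78. Its mean in primary c-Myc-high libraries was 0.00475 CPM (n = 2), also under the level of 3 counts. Of 16 genes for dynamics and mitophagy, 10 had a positive value between sites in c-Myc-high cells, with a median of 0.45, and the mitophagy receptors Bnip3l and Fundc1 had mean class effects of -0.96 (SE 0.56, edgeR adjusted p = 0.498) and -1.20 (SE 0.79, edgeR adjusted p = 0.542).

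**Figure D5:**
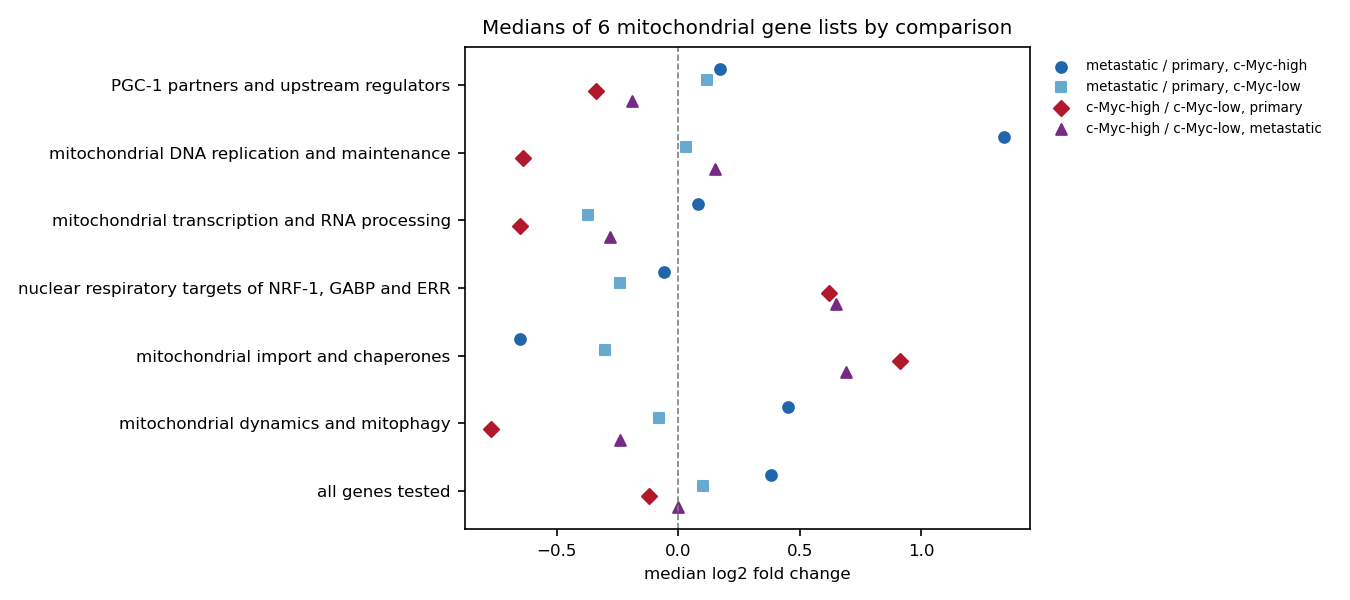
Median log2 fold change of each of 6 gene lists and of all genes tested, in 4 comparisons (symbols). The respiratory target and import lists lie at 0.62 to 0.91 between c-Myc classes, and the DNA maintenance list at 1.34 between sites in c-Myc-high cells.

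By the Pearson correlation of log2 CPM over the 10 libraries, the genes most like Ppargc1a were Sorbs3 (0.963), Irgm2 (0.962), Mlph (0.962) and Dlg4 (0.961). Mlph encodes melanophilin, which links pigment granules to the transport machinery. For Tfam they were Nadsyn1 (0.981), Ccdc163 (0.978), Slfn8 (0.976) and Letm2 (0.975), and for Esrra they were Gpank1 (0.962), Pdpr (0.929), Zbtb22 (0.925) and Atp6v1h (0.923). For Ppargc1b they were Wdr48 (0.974), Sgms2 (0.974), Tsc22d1 (0.957) and Mrps2 (0.953). Among the 10 members themselves, Pprc1 and Polrmt had r = 0.716 and Ppargc1b and Nrf1 0.708, while Ppargc1b and Tfb2m had -0.845. Ppargc1a had 0.242 with Tfam and 0.195 with Esrra. The libraries share groups and depth, so these values describe likeness only.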

How the data were processed

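The authors deposited 1 table of estimated counts and RPKM for 92214 transcript rows. The estimated counts are unscaled and need not be whole, per the file's values, and the RPKM values are the authors' own scaling by length and library. Bowtie2, limma and mm10 appear in the submitters' processing notes. How reads were assigned to transcripts, with which annotation and strand setting, was not given in the sources used here.

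Estimated counts were summed by gene name and rounded. Genes passing edgeR's default filter (16805) were scaled by TMM and tested by edgeR's robust quasi-likelihood method (edgeR 4.0.16, R 4.3.3) over all 4 groups together, without covariates. Its common coefficient of biological variation came to 0.876. P-values were adjusted by Benjamini-Hochberg over all genes, calls had an adjusted p under 0.05, and every adjusted p of a gene is edgeR's unless DESeq2 1.42.0 is named. The procedure was also run on simulated counts with known changes, and the outcome is not given here. The absence of a call therefore does not show that a difference is absent. CPM compares libraries, and RPKM, which was not scaled to the counted totals, compares genes within a library. Permutation tests were exact and two-sided. Loci come from GENCODE M21.

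The members and lists were chosen with earlier results of these data known. Members were all described. From each list, up to 3 called genes per comparison are named, or else up to 2 with the lowest p in the mean class comparison. A result of these lists is not reported here. The 4 most correlated genes are named for 4 members, leaving out predicted genes. Alternatives included DESeq2, limma-voom, other filters, a replicate block and leaving out libraries. The labels give no batch. Counting intervals are not given, and amplified libraries without molecular identifiers hold non-independent reads.

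Same-numbered libraries were checked for pairing. Of 13 pairs, 3 deviated together with a correlation over 0.1 (range -0.305 to 0.153), and the numbers were not treated as pairs. Deviations were taken from each group's own mean. In the primary groups, with 2 libraries each, they mirror each other, so the 13 pairs are not independent. The check therefore cannot show whether libraries of the same number came from the same tumour.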

Additional observations from a re-analysis of the deposited data

Results flagged for a closer look

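For Esrra, the order of the libraries by site in CPM was opposite in the 2 c-Myc classes, but neither site effect passed the test. Each metastatic c-Myc-high library lay above each primary c-Myc-high one, and each metastatic c-Myc-low library lay below each primary c-Myc-low one. The log2 fold change was 2.13 (SE 1.21) in c-Myc-high cells, with an adjusted p = 0.271 by edgeR. In c-Myc-low cells it was -0.49 (SE 1.07), with an unadjusted p = 0.655 by edgeR. Of all genes tested, 27.9% had sites that did not overlap in CPM in c-Myc-high cells and 45.3% in c-Myc-low cells. The difference of the 2 site effects was 2.62 on the log2 scale (SE 1.59). It did not pass the test of that difference, with an unadjusted p = 0.126 and an adjusted p = 0.773 by edgeR. The 2 primary c-Myc-high libraries held 3.40 and 10.3 estimated counts of the gene. In RPKM the c-Myc-low groups overlapped. RPKM was not scaled to the counted totals, so this overlap is no check of the directions in CPM.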

How the results depend on the processing

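In 20 alternative settings, 2 of them chosen after seeing the data, 60 member comparisons gave 1180 values. Of these, 10 passed the threshold and 108 had the other sign without passing; 28 of the 60 comparisons kept their sign throughout. Between sites in c-Myc-high cells, the members called numbered 2 with DESeq2, 2 without both libraries of the lowest total count and 0 to 1 when each library was left out in turn. In c-Myc-low cells 1 was called with DESeq2, with no filter, with voom and with the 2 groups alone, and 0 to 1 with each library left out. Over all genes, the site comparison in c-Myc-high cells called 3248 genes with DESeq2, 1273 with no filter, 335 with the leading transcript, 166 with voom, 121 with RPKM and limma-trend, 155 with the 2 groups alone, 300 to 1232 with each library left out, 0 without the salivary-rich libraries and 2932 without both libraries of the lowest total count. In c-Myc-low cells the counts were 1687, 774, 225 and 3944 with the first 4 of these, 2276 with the 2 groups alone, 127 to 572 with each library left out, 665 without the salivary-rich and 1104 without the lowest-count libraries. The class comparison in primary cells called 398 (DESeq2), 2 (no filter), 2 (voom), 8 (limma-trend) and 1135 (without the lowest-count libraries). In metastatic cells it called 86 (DESeq2), 2 (limma-trend) and 0 to 33 with each library left out. Its mean over both sites called 500 (DESeq2), 2 (no filter), 1 (voom), 0 to 17 with each library left out and 268 without the lowest-count libraries. With the replicate block, 150 and 140 genes were called in the 2 site comparisons and 0 members in any; 2 of 10 libraries correlated best with their own number. By the leading transcript alone, the mean RPKM was 0.714 for Nrf1, 0.628 for Polg and 0.716 for Polrmt, and 2 of 10 genes kept their rank, with a shift of up to 5. The cause of these changes was not tested.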
